A study of Homo sapiens with 6 samples.

Results

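Superoxide dismutases and the enzymes that remove the peroxide they make were followed here in K562 cells, an established human leukemia line, after knockdown of the nucleolar protein NPM. The 10 genes are SOD1, SOD2, SOD3, CAT, GPX1, GPX4, PRDX1, PRDX2, PRDX3 and TXN, out of 20802 genes in each table, and all 10 had a value. They were taken by symbol. The list was selected on the RPM values of the extracellular dismutase SOD3 in these libraries, which are higher after the knockdown, so SOD3 is described below without a test. Tested cells carried the shRNA shNPM300 (NPMKD, 3 libraries) and control cells a scrambled shRNA (shSc, 3 libraries). Cells of both groups had been infected with a lentiviral shRNA vector and kept under puromycin selection, so what they share includes the infection and the drug. The paper calls the knockdown and scramble cells stable clones, so differences between clones cannot be told apart from the knockdown. The model is limited to 1 cell line and to 1 shRNA against NPM, and the labels do not say whether replicates are separate cultures. The p-values thus measure no more than how these libraries scatter, which may be technical scatter. RNA was read with AmpliSeq, which amplifies a short target per gene and counts reads of that target. Values are RPM, reads scaled to the same total in every library, and since each gene is read through its own amplicon, levels were compared between libraries and not between genes.

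Superoxide dismutases turn superoxide, a by-product of respiration and of oxidases, into hydrogen peroxide and oxygen. SOD1 works in the cytosol with copper and zinc, SOD2 in the mitochondrial matrix with manganese, and SOD3 is secreted, carries copper and zinc, and binds heparan sulfate at the cell surface and in the matrix. Hydrogen peroxide is then removed by catalase, by glutathione peroxidases and by peroxiredoxins, which thioredoxin reduces again. Erythroid cells such as K562, whose iron and hemoglobin are a source of superoxide, are known for high levels of catalase, GPX1 and PRDX2.

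Library depth ranged over 11726763 to 18981902 reads in NPMKD and 8842344 to 14187046 reads in shSc libraries. The library of shSc replicate 3 stood apart: its correlation with the others was 0.839 to 0.879 on log2 values, against 0.922 to 0.972 among the other 5, and 1844 of 4659 genes at 0 in those 5 were above 0 there. The tests therefore used 3 NPMKD and 2 shSc libraries, as the study did, and values of shSc replicate 3 are given beside them. The knockdown was visible in NPM1 itself, with 1302, 1168 and 655 RPM in NPMKD against 3856 and 2968 RPM in shSc (3146 RPM in shSc replicate 3). All 14 K562 and erythroid marker genes in the table were detected, with summed levels of 10840 to 21586 RPM in NPMKD and 11121 to 18885 RPM in shSc. NPM1 differed by -1.76 ± 0.35 on the log2 scale (SE), with limma adjusted p = 0.158. The main test thus did not call the gene that was knocked down, and a gene that did not pass it is not shown to be unchanged. The smallest and largest adjusted p of NPM1 over all alternatives were 4.65e-06 and 0.588, and DESeq2 on reads gave 0.00145. Of 11554 genes tested, 15 passed an adjusted p of 0.05, which is 0.13% (8 higher in NPMKD, or 0.0692%, and 7 lower, or 0.0606%).

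The regions before the start of SOD3, the gene that set the choice of the list, and of PRDX2, a peroxiredoxin of red cells whose groups overlapped, are shown for orientation with each CG dinucleotide in capitals. They are the 250 bases upstream of the RefSeq start in build GRCh38.p14, 5′ to 3′ on the strand of the gene, at chr4:24795323-24795572 (plus strand) for SOD3 and chr19:12801801-12802050 (minus strand) for PRDX2. A RefSeq start need not be the start of the GENCODE gene span, which is given below in build GRCh37.
SOD3: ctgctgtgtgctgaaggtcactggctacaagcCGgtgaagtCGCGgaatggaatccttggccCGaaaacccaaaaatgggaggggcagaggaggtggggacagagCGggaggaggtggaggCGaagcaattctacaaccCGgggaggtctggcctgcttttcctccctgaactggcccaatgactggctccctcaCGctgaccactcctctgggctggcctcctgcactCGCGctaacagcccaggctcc
PRDX2: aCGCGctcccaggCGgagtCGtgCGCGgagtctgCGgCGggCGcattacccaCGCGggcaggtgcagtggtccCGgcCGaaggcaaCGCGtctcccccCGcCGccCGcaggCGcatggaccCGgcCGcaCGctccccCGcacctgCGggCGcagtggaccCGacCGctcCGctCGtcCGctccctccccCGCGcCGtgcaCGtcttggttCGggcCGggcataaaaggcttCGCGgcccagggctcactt
The SOD3 sequence held 10 CG dinucleotides and the PRDX2 sequence 38. RefSeq starts were found for 8 of the 10 genes (not for SOD1 and PRDX1), 13 starts in all, and the starts other than that of SOD3 held 13 to 38 CG. The median over all 35116 promoters of this length was 11, and 49.7% of them held no more than SOD3. The motif TGACNNNGC, the core of the antioxidant response element, was found on either strand in 0 of the 13 starts, against 10.9% of all promoters. SOD2 and GPX4 have several starts each, and windows of GPX4 share bases. So few separate genes cannot show a lack of the motif. All of these counts are descriptions of the letters in the window, and no binding was measured.

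SOD3 was the 1 dismutase whose RNA stood apart between the groups. The gene lies on chromosome 4 at 24791534 to 24802464 (plus strand, GRCh37), and its canonical transcript has 2 exons with the whole coding sequence in 1 of them. Its level was 18.1, 11.3 and 10.1 RPM in the NPMKD libraries, against 0.705 and 0.558 RPM in shSc replicates 1 and 2 and 2.26 RPM in shSc replicate 3. All NPMKD libraries lay above all shSc libraries, as for 9.55% of all tested genes (12.3% without shSc replicate 3), and NPMKD replicate 1 was the highest of the 6. More cells with SOD3 RNA and more of it per cell cannot be told apart in these bulk samples. These values rest on 215, 132 and 191 reads in NPMKD and on 10 and 7 reads in shSc, with 20 reads in shSc replicate 3. The mean of 3 NPMKD libraries was 13.1 ± 4.33 RPM (SD) and that of 2 shSc libraries 0.632 ± 0.104 RPM (SD), a ratio of 20.8. The ratio of means was 11.2 when shSc replicate 3 was included, and the lowest NPMKD library was 4.45 times the highest of the 3 shSc libraries. On the log2(RPM + 0.5) scale, which understates changes of low genes, the difference was 3.55, and 3.12 with all 6 libraries.

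SOD3 is best known from vessel walls, where smooth muscle cells and fibroblasts secrete it. The 12 fibroblast and smooth muscle markers summed to 14.9 to 57.1 RPM in NPMKD and 16.9 to 37.7 RPM in shSc, so that the groups overlapped. In shSc replicate 3, where SOD3 was also higher than in the other shSc libraries, they summed to 158.9 RPM. Of these markers, 9 (COL3A1, DCN, LUM, PDGFRA, THY1, ACTA2, TAGLN, MYH11 and FAP) were under 1 RPM in all 5 other libraries. The sums also hold the remaining markers, of which 2 reached 1 RPM in at least 2 of those 5 libraries, so not all 12 were absent. The 8 endothelial markers summed to 1.43 to 3.48 RPM in NPMKD and 1.20 to 1.99 RPM in shSc, against 143.9 RPM in shSc replicate 3, and 4 of them were at 0 in the other 5 libraries. Lymphoid markers were also higher in shSc replicate 3, at 218.7 RPM, against 19.4 to 90.7 RPM in NPMKD and 52.8 to 53.9 RPM in shSc replicates 1 and 2. Epithelial markers summed to 1093 RPM there, inside the NPMKD range of 705.3 to 1560.5 RPM and above 788.8 to 892.7 RPM in shSc replicates 1 and 2. Of 8 epithelial markers 5 reached 1 RPM in at least 2 of the 5 other libraries, and of 10 lymphoid markers 3 did. Whether cells of any of these types were present, and whether they had a part in the SOD3 level, was not tested.

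The cytosolic and mitochondrial dismutases did not pass the test. SOD1 (chromosome 21, 33031979 to 33041244, plus strand) had 1390, 1335 and 1130 RPM in NPMKD against 1311 and 1718 RPM in shSc, and 1140 RPM in shSc replicate 3. The groups overlapped, and NPMKD replicate 3 and shSc replicate 3 were the lowest. The difference of SOD1 was -0.23 ± 0.26 on the log2 scale (SE), with a 95% interval of -0.82 to 0.36 and a limma adjusted p of 0.913. SOD2 (chromosome 6, 160090101 to 160183561, minus strand) had 249.0, 204.1 and 173.3 RPM in NPMKD against 206.6 and 190.9 RPM in shSc, and 172.6 RPM in shSc replicate 3. Each shSc library lay inside or just below the range of the NPMKD libraries. The difference of SOD2 was 0.06 ± 0.24 (SE, interval -0.51 to 0.62, limma adjusted p = 0.979).

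**Figure D1:**
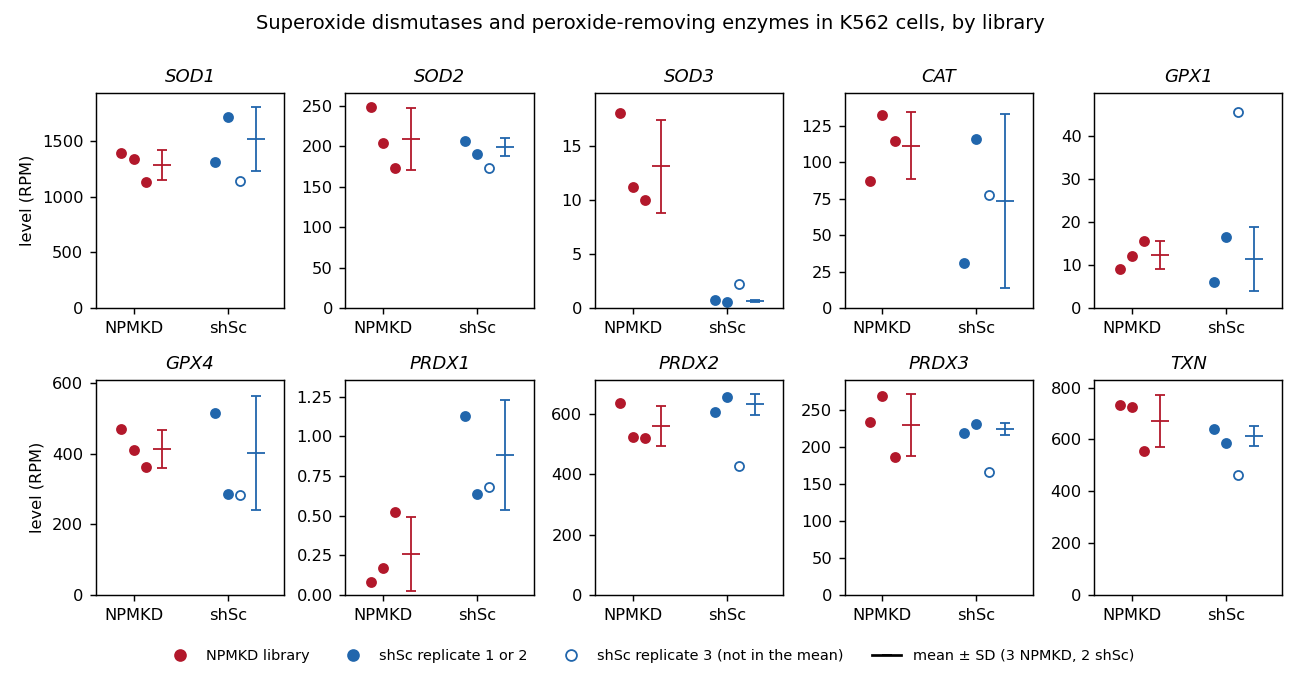
Level of each of the 10 genes in RPM (linear axes from 0, one scale per gene) in NPMKD libraries (left, red) and shSc libraries (right, blue); shSc replicate 3 is drawn open and the bars are mean ± SD of 3 NPMKD and 2 shSc libraries. SOD3 lies at 10.1 RPM or more in NPMKD and at 2.26 RPM or less in shSc, PRDX1 is lower in NPMKD at levels of about 1 RPM or less, and the other 8 genes overlap.

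Of the peroxide-removing enzymes, none passed the test in the libraries of the comparison, and PRDX1 was too low to enter it. CAT encodes catalase, the heme enzyme of peroxisomes that splits hydrogen peroxide without a reductant (chromosome 11, 34460481 to 34493607, plus strand). It had 87.2, 132.6 and 115.0 RPM in NPMKD, against 31.1 and 115.8 RPM in shSc and 77.7 RPM in shSc replicate 3. Of the shSc libraries, replicate 1 was low, whereas replicate 2 lay within the NPMKD range. The mean of CAT was 111.6 ± 22.9 RPM in 3 NPMKD libraries and 73.4 ± 59.9 RPM in 2 shSc libraries (SD). The difference was 0.87 ± 0.51 on the log2 scale (SE), with a 95% interval of -0.31 to 2.04, or a fold of 0.81 to 4.11, and a limma adjusted p of 0.804. It was -0.07 without shSc replicate 1 and 1.81 without shSc replicate 2, the ends of its range over the alternatives. The adjusted p of CAT ranged between 0.0191 and 1.00, with the lowest in the limma fit with a replicate block. Among the 8 tested genes the interval of CAT was the widest.

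GPX1 and GPX4 are selenoproteins that use glutathione, GPX1 on hydrogen peroxide in the cytosol and GPX4 on lipid peroxides in membranes. GPX1 (chromosome 3, 49394607 to 49396038, minus strand) had 9.17, 12.1 and 15.7 RPM in NPMKD, against 6.13 and 16.6 RPM in shSc and 45.5 RPM in shSc replicate 3. All NPMKD libraries lay between shSc replicates 1 and 2. Its difference was 0.24 ± 0.46 (SE, interval -0.84 to 1.31, limma adjusted p = 0.944), and -0.47 when shSc replicate 3 was included. It was -0.45 without shSc replicate 1 and 0.92 without shSc replicate 2. GPX4 (chromosome 19, 1103981 to 1106790, plus strand) had 470.8, 409.7 and 363.9 RPM in NPMKD, against 515.7 and 287.6 RPM in shSc and 283.2 RPM in shSc replicate 3. The NPMKD values of GPX4 again lay between those of shSc replicates 1 and 2, with a difference of 0.10 ± 0.30 (SE, interval -0.59 to 0.79, limma adjusted p = 0.966). That of GPX4 was 0.52 without shSc replicate 1 and -0.32 without shSc replicate 2.

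Peroxiredoxins reduce peroxide with a reactive cysteine. PRDX2, the cytosolic form abundant in red cells (chromosome 19, 12907634 to 12912614, minus strand), had 636.3, 523.7 and 519.4 RPM in NPMKD, against 607.2 and 655.0 RPM in shSc and 428.4 RPM in shSc replicate 3. The groups overlapped through NPMKD replicate 1. Its difference was -0.18 ± 0.23 (SE, interval -0.71 to 0.35, limma adjusted p = 0.922), and 0.01 with all 6 libraries. PRDX3, the mitochondrial form (chromosome 10, 120927232 to 120938324, minus strand), had 233.7, 269.7 and 186.3 RPM in NPMKD, against 219.7 and 231.2 RPM in shSc and 167.0 RPM in shSc replicate 3. Both shSc replicates 1 and 2 lay inside the NPMKD range, and the difference of PRDX3 was 0.01 ± 0.24 (SE, interval -0.55 to 0.58, limma adjusted p = 0.996).

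PRDX1, a cytosolic and nuclear peroxiredoxin (chromosome 1, 45976586 to 46008404, minus strand), was scarcely read by its amplicon and stayed under the filter of 1 RPM in at least 2 of 5 libraries. It had 0.084, 0.171 and 0.527 RPM in NPMKD, against 1.13 and 0.638 RPM in shSc and 0.679 RPM in shSc replicate 3. These are 1, 2 and 10 reads in NPMKD against 16 and 8 reads in shSc, and 6 reads in shSc replicate 3. Scarce RNA and a target that this amplicon reads poorly cannot be told apart here. All NPMKD libraries were below all shSc libraries, in the opposite direction to SOD3. Of all tested genes, to which PRDX1 does not belong, 13.9% did not overlap in the 6 libraries in either direction. Most of these, 9.55% of all tested genes, had NPMKD higher, opposite to PRDX1, so the share with NPMKD lower is the smaller part. In the 5 libraries 1207 of 11554 tested genes did not overlap with NPMKD lower. The pooled 13 NPMKD reads against 24 shSc reads gave a ratio of 0.34, with an exact 95% interval of 0.16 to 0.69 for counting error only. With the filter removed the difference of PRDX1 was -0.88 ± 0.31 on the log2 scale (SE) and did not pass (limma adjusted p = 0.575 over 16143 genes).

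TXN encodes thioredoxin, the reductant of the peroxiredoxins (chromosome 9, 113006090 to 113018787, minus strand). It had 734.4, 726.5 and 555.4 RPM in NPMKD, against 640.0 and 585.9 RPM in shSc and 463.9 RPM in shSc replicate 3. NPMKD replicates 1 and 2 were the highest and NPMKD replicate 3 lay below shSc replicates 1 and 2. The difference of TXN was 0.12 ± 0.24 (SE, interval -0.44 to 0.68, limma adjusted p = 0.944).

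Of the 8 genes other than SOD3 that could be tested, 0 passed limma at an adjusted p of 0.05, against 0.13% of all genes, and 0 had an unadjusted p under 0.05, against 7.14% of all genes. Both edgeR and DESeq2 on the recovered reads also called 0 of 8, again with 0 at an unadjusted p under 0.05. Their differences ran between -0.23 and 0.87 on the log2 scale with a median of 0.08, beside a median of 0.01 over all genes tested, and 6 of 8 were positive. Over the 19 alternatives TXN kept its sign, with differences of 0.05 to 0.35, while each of the other 7 tested genes had values on either side of 0. In 0 of these 8 did the groups of 5 libraries not overlap, whereas 22.8% of all tested genes did not overlap. Among the 9 genes other than SOD3, PRDX1 was the 1 without overlap, and it was not tested for its low level.

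**Figure D2:**
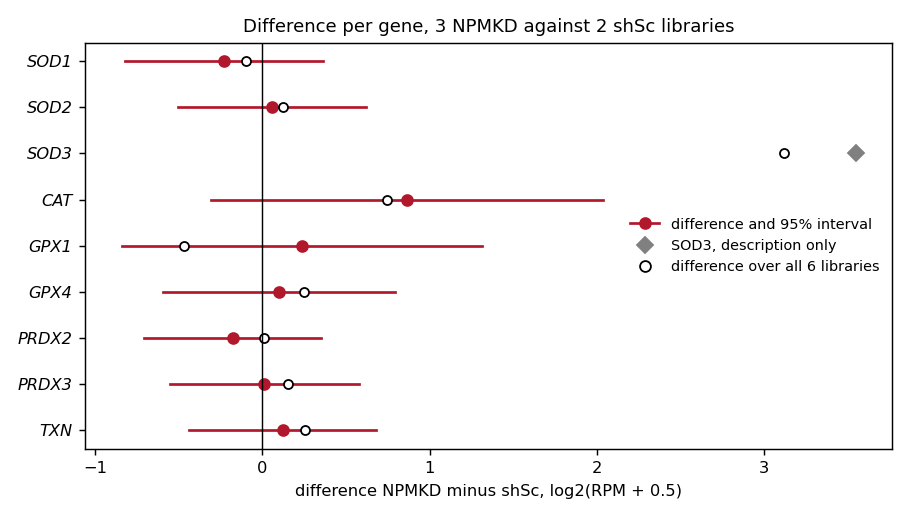
Difference NPMKD minus shSc on the log2(RPM + 0.5) scale for the 9 genes above the filter, with 95% intervals from limma (3 NPMKD and 2 shSc libraries; SOD3 as a diamond without interval) and the value over all 6 libraries as open circles. The intervals of all 8 tested genes span 0 and the SOD3 value lies at 3.55.

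The neighbours of SOD3 were looked at next, to place the gene in its region. Within 500 kb of its start, 5 protein-coding genes had values. CCDC149 lies on the opposite strand with its end facing that of SOD3, 2671 bases away. Its level was 0.841, 0.597 and 0.527 RPM in NPMKD (10, 7 and 10 reads), against 0 RPM in shSc replicates 1 and 2 and 0.226 RPM (2 reads) in shSc replicate 3. All NPMKD libraries were above all shSc libraries in CCDC149, as in SOD3, at a level under the filter. Of all tested genes, to which CCDC149 does not belong, 9.55% had the same order. Pooled over all 6 libraries, 27 NPMKD reads against 2 shSc reads gave a ratio of 11.3, with an exact 95% interval of 2.83 to 97.8 for counting error only. Without the filter its difference was 1.20 ± 0.20 on the log2 scale (SE) and did not pass (limma adjusted p = 0.151 over 16143 genes).

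The other neighbours did not follow SOD3. DHX15, an RNA helicase of the spliceosome whose gene lies upstream of SOD3, averaged 334.0 ± 74.0 RPM in 3 NPMKD libraries and 272.2 ± 66.2 RPM in 2 shSc libraries (SD), a difference of 0.29 ± 0.28 (SE, limma adjusted p = 0.894). LGI2 stayed at or under 0.479 RPM in every library. SEPSECS, an enzyme of selenocysteine synthesis, differed by -0.49 ± 0.47 (SE, limma adjusted p = 0.898), and by 0.07 without shSc replicate 1 and -1.04 without shSc replicate 2. PI4K2B, a phosphatidylinositol kinase, differed by -0.35 ± 0.30 (SE, limma adjusted p = 0.881). DHX15, SEPSECS and PI4K2B overlapped between the groups.

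The pattern most like that of SOD3 over the 6 libraries, among 9638 tested genes with at least 5 RPM in 1 of the group means, was that of SYNE2 (Pearson r = 0.993 on log2 values), which encodes a nuclear envelope protein. Its level was 11.5, 7.08 and 7.43 RPM in NPMKD, against 0.705 and 0.558 RPM in shSc and 2.71 RPM in shSc replicate 3. CCL2, a monocyte chemokine, followed with r = 0.986 and 7.49, 5.29 and 4.06 RPM in NPMKD against 0.916 and 0.638 RPM in shSc, and 2.38 RPM in shSc replicate 3. ZNF702P (r = 0.985), ISOC1 (r = 0.985) and ATP1B1 (r = 0.983), a subunit of the sodium pump, came next. Each of these 5 genes, like SOD3, had shSc replicate 3 between the NPMKD libraries and the other shSc libraries. They were picked by r over the same libraries, which favors such an order. The points of these correlations share their libraries and fall into the groups of the study, so that the values describe likeness only.

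**Figure D3:**
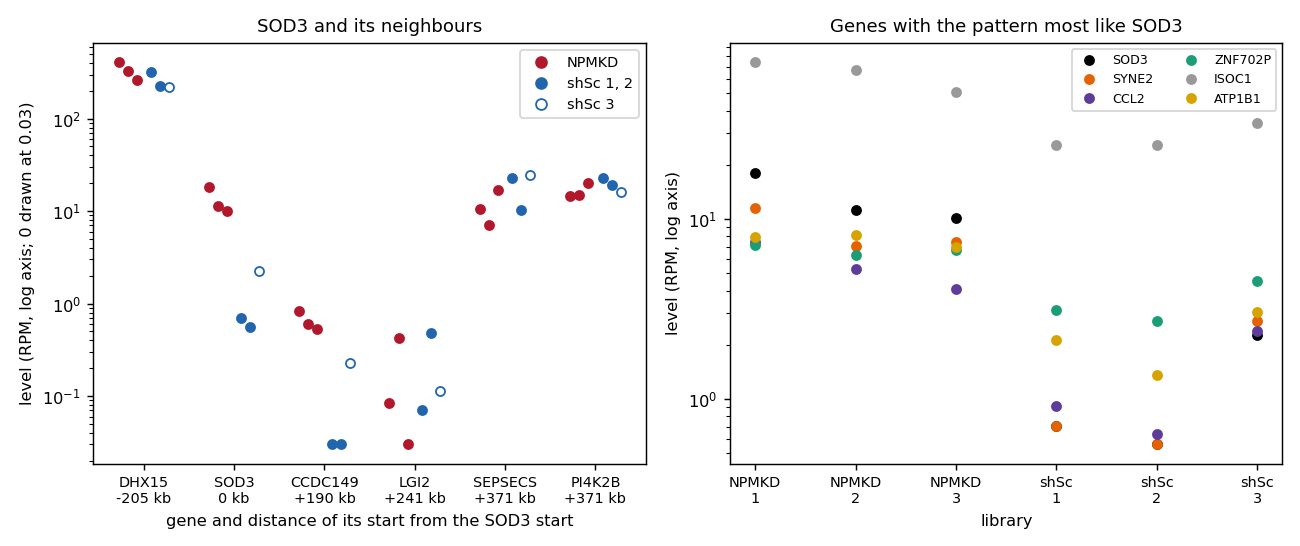
Left, level in RPM (log axis, 0 drawn at 0.03) of SOD3 and the 5 genes starting within 500 kb, ordered by distance of their start from the SOD3 start in kb, in NPMKD (red) and shSc libraries (blue, replicate 3 open). Right, level in RPM (log axis) of SOD3 and the 5 genes of most similar pattern in each of the 6 libraries; SOD3 and SYNE2 coincide in shSc replicates 1 and 2, at 0.705 and 0.558 RPM, and CCDC149 on the left is at 0 in these libraries.

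Genes around these enzymes were described through 8 lists of related function, which held 80 gene names, 79 of them with values and 68 above the filter. Of these 68, 0 passed limma at an adjusted p of 0.05 (0.13% of all genes did), and 3 had an unadjusted p under 0.05. The edgeR and DESeq2 fits called 0 of 68 too, with 2 each at an unadjusted p under 0.05. The median difference was -0.06, and the groups did not overlap in 15 of 68 genes or 22.1%, near the 22.8% of all genes (6 higher and 9 lower in NPMKD). Over all 6 libraries the groups did not overlap in 7 of 68 related genes, beside 13.9% of all tested genes. The lowest adjusted p among the related genes was 0.447.

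The thioredoxin and glutaredoxin system, which keeps peroxiredoxins and other cysteines reduced, had the highest median of the lists, at 0.34 over 10 tested genes, with 0 calls. SRXN1, the sulfiredoxin that repairs over-oxidised peroxiredoxins, averaged 30.4 ± 3.21 RPM in 3 NPMKD libraries and 20.3 ± 9.81 RPM in 2 shSc libraries (SD), a difference of 0.65 ± 0.35 (SE, limma adjusted p = 0.789). GLRX5, a mitochondrial glutaredoxin needed for iron-sulfur clusters, averaged 240.5 ± 18.4 RPM in NPMKD and 186.5 ± 14.7 RPM in shSc (limma adjusted p = 0.804). SRXN1 and GLRX5 were higher in every NPMKD library than in every shSc library, as were 9.55% of all tested genes. TXNIP, the inhibitor that binds thioredoxin, differed by 0.54 ± 0.38 with overlapping groups (SE, limma adjusted p = 0.846). TXNRD1, the cytosolic thioredoxin reductase, was named after its values were seen: it was read in 1 library alone, at 0.053 RPM (1 read) in NPMKD replicate 3. Absent RNA and a target that its amplicon does not read cannot be told apart here.

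NRF2 is the transcription factor that switches on many of these genes under oxidative stress. Over its 10 tested regulators and targets the median was 0.31, with 0 calls. NFE2L2, which encodes NRF2, averaged 120.1 ± 31.2 RPM in 3 NPMKD libraries and 103.7 ± 81.5 RPM in 2 shSc libraries (SD), a difference of 0.44 ± 0.51 (SE, limma adjusted p = 0.916). The difference of NFE2L2 was 1.34 without shSc replicate 1 and -0.46 without shSc replicate 2. Both subunits of the enzyme that starts glutathione synthesis failed the test. The modifier subunit GCLM differed by 0.46 ± 0.27 (SE, limma adjusted p = 0.804), and the catalytic subunit GCLC by -0.79 ± 0.66 (SE, limma adjusted p = 0.875).

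Glutathione synthesis and recycling had the lowest median of the lists, at -0.38 over 10 tested genes, again with 0 calls. GSR, which reduces oxidised glutathione, averaged 207.4 ± 39.1 RPM in 3 NPMKD libraries and 197.4 ± 111.5 RPM in 2 shSc libraries (SD), a difference of 0.18 ± 0.37 (SE) that was 0.79 without shSc replicate 1 and -0.43 without shSc replicate 2. GGCT, which breaks down glutathione fragments, differed by 0.25 ± 0.24 (SE). GGT1, a surface enzyme that cleaves extracellular glutathione, had 1.09, 1.19 and 3.11 RPM in NPMKD against 3.45 and 5.34 RPM in shSc, and 29.6 RPM in shSc replicate 3. All NPMKD libraries were lower than all shSc libraries, where 13.9% of all tested genes did not overlap in either direction. The difference of GGT1 was -1.17 ± 0.48 (SE, limma adjusted p = 0.677).

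NADPH supply, on which glutathione and thioredoxin reductases depend, had a median of -0.30 over 12 tested genes with 0 calls. IDH2, the mitochondrial NADP-dependent isocitrate dehydrogenase, was singled out after its values were seen, as the related gene with the lowest adjusted p. It had 94.5, 87.0 and 157.3 RPM in NPMKD, against 252.8 and 198.1 RPM in shSc and 134.8 RPM in shSc replicate 3. NPMKD libraries were below shSc replicates 1 and 2, though NPMKD replicate 3 was above shSc replicate 3. The difference of IDH2 was -1.04 ± 0.31 (SE, limma adjusted p = 0.447). TALDO1, of the pentose phosphate pathway, averaged 720.4 ± 34.7 RPM in NPMKD and 930.9 ± 50.9 RPM in shSc (SD, n = 3 and 2), a difference of -0.37 ± 0.22 (SE, limma adjusted p = 0.804). MTHFD2 and ALDH1L2, of mitochondrial folate metabolism, differed by 0.01 ± 0.31 and -1.16 ± 0.79 (SE, limma adjusted p = 0.998 and 0.838).

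Copper and manganese supply, which loads the metals into the dismutases, had a median of -0.05 over 12 tested genes with 0 calls. ATP7B, a copper pump of the secretory pathway, averaged 17.0 ± 4.55 RPM in 3 NPMKD libraries and 29.8 ± 1.59 RPM in 2 shSc libraries (SD), a difference of -0.83 ± 0.32 (SE, limma adjusted p = 0.643). ATOX1, the chaperone that hands copper to this pathway, differed by -0.13 ± 0.25 and the copper importer SLC31A1 by -0.45 ± 0.45 (SE, limma adjusted p = 0.944 and 0.902). That of SLC31A1 was 0.27 without shSc replicate 1 and -1.17 without shSc replicate 2. CCS, the copper chaperone of SOD1, was also singled out after its values were seen. It had 17.6, 17.5 and 24.6 RPM in NPMKD, against 29.5 and 27.2 RPM in shSc and 14.5 RPM in shSc replicate 3. The groups did not overlap with shSc replicates 1 and 2 and overlapped once shSc replicate 3 was added, and the difference of CCS was -0.52 ± 0.29 (SE, limma adjusted p = 0.804).

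The remaining lists were also without calls. Other peroxidases had a median of -0.22 over 6 tested genes, and their most abundant members PRDX6 and PRDX5 differed by 0.46 ± 0.41 and -0.35 ± 0.40 (SE, limma adjusted p = 0.885 and 0.914). The difference of PRDX6 was 1.18 without shSc replicate 1 and -0.26 without shSc replicate 2, and that of PRDX5 was -0.73 and 0.03. Selenocysteine incorporation, which GPX1 and GPX4 need for their active site, had a median of 0.00 over 9 genes. In this list RPL30, a ribosomal protein that also binds the selenocysteine element, differed by 0.35 ± 0.25 (SE, limma adjusted p = 0.849) and SEPHS2, which makes the selenium donor, by 0.00 ± 0.31 (SE). Methionine sulfoxide reductases had a median of -0.19 over 3 tested genes. Among them MSRA had 5.89, 3.84 and 3.21 RPM in NPMKD against 2.82 and 1.28 RPM in shSc and 1.81 RPM in shSc replicate 3. The groups did not overlap, with NPMKD higher, as in 9.55% of all tested genes. The difference of MSRA was 0.95 ± 0.44 (SE, limma adjusted p = 0.746). MSRB1 and MSRB2 differed by -0.19 ± 0.36 and -0.22 ± 0.30 (SE, limma adjusted p = 0.944 and 0.922). The differences of MTHFD2, SEPHS2 and MSRB1 also took values on either side of 0 when 1 library was left out.

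**Figure D4:**
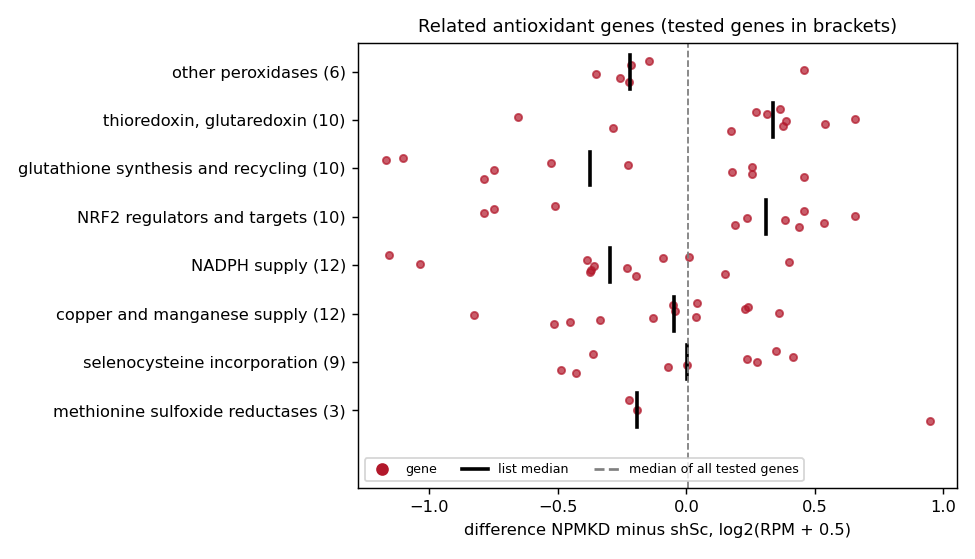
Difference NPMKD minus shSc on the log2(RPM + 0.5) scale of each tested gene in the 8 related lists (points; a gene may be in more than 1 list), with the list medians as black bars and the median of all tested genes, 0.01, as a dashed line. The medians run between -0.38 and 0.34, and no gene passed the test.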

How the data were processed

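Total RNA of K562 cells was extracted with TRIzol, and AmpliSeq libraries were sequenced on an Ion Proton. With Torrent Suite the authors aligned the reads to hg19, and the deposited RPM values (reads per amplicon, scaled to a fixed total per library) come from the AmpliSeqRNA plugin. Its version is not given in the sources used here, nor are its filters. Spike-in values, all 0, were left out. Whole reads were recovered from the RPM steps for 100% of values within 0.1 read. With 3 reads as a floor, the smallest readable level was 0.158 to 0.339 RPM per library. The exact intervals of pooled reads cover counting error only, whereas the limma intervals rest on the scatter between libraries.

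The fit was limma 3.58.1 on log2(RPM + 0.5), with a variance trend, for genes reaching 1 RPM in 2 or more of the 5 libraries, with Benjamini-Hochberg adjustment over 11554 genes at 0.05 (two-sided). Libraries of shSc replicates 1 and 2 were used, whose mean is the control level of the study's gene list. There were 19 alternatives, among them edgeR 4.0.16 and DESeq2 1.42.0 on recovered reads. The test was also run on simulated reads with 200 changed genes, whose scatter was set beforehand and need not match that of these libraries. Coordinates are from GENCODE 44 on GRCh37 (hg19), promoters from RefSeq on GRCh38.p14. Named genes were the 10 genes, NPM1, for each related list the passing genes or otherwise the 2 most abundant and the 1 of largest difference, neighbours within 500 kb of SOD3, and the 5 genes most correlated with SOD3. Members and lists were chosen with earlier results of these data known. The study's fold-change columns were not used.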

Additional observations from a re-analysis of the deposited data

Results flagged for a closer look

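The library of shSc replicate 3, which is outside the tests, held more reads of some of these genes than the other shSc libraries, by at least 2 times and with at least 10 reads. SOD3 was at 2.26 RPM there, against 0.705 RPM in the higher of shSc replicates 1 and 2, with 18.1 RPM in the highest NPMKD library. GPX1 was at 45.5 RPM, against 16.6 RPM in the higher of the other shSc libraries. Of the related genes, GPX3, the plasma glutathione peroxidase, was at 7.01 RPM against 0.798 RPM, and GGT1 at 29.6 RPM against 5.34 RPM. Among all genes, 3114 met the same criterion in this library, and the cause was not tested.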

How the results depend on the processing

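Of the 8 tested genes other than SOD3, 0 were called under 18 of 19 alternatives (0 to 2 at an unadjusted p under 0.05), and 1 (CAT, log2 difference 0.83) with the replicate block. Of the 68 related genes 11 (16.2%) were called with that block, near the 14.7% of all genes called in the same fit, and 0 otherwise (1 to 8 at an unadjusted p under 0.05). No SOD3 value changed sign. SOD3 differed by 4.37 with DESeq2, 4.36 with edgeR, 4.14 and 3.07 with pseudocounts of 0.1 and 1, 3.12 with all 6 libraries with or without the replicate block, and 2.95 or 2.86 with shSc replicate 3 in place of replicate 1 or 2. NPM1 passed with DESeq2 (-1.71) and the replicate block (-1.46). Over all genes the 15 calls became 190 with DESeq2, 26 with quantile normalization, 7 with a 5 RPM filter, 2 without a filter, 3 with all 6 libraries and 0 with shSc replicate 3 in place of replicate 1 or 2 (1358 and 779 genes at an unadjusted p under 0.05 in limma). They became 1698 of 11554 (14.7%) with the replicate block, which leaves 1 residual degree of freedom, and 0 with the block and all 6 libraries (1092 at an unadjusted p under 0.05). In the block fit without shSc replicate 3, NPMKD replicate 3 has no partner and adds nothing to the differences. The differences of CAT, NPM1 and SOD3 there equal those without NPMKD replicate 3. The calls of that block fit, CAT and NPM1 included, thus rest on replicates 1 and 2 of each group. Leaving out 1 library gave 0 to 5 calls, with 0 without shSc replicate 1 or 2 (875 and 994 at an unadjusted p under 0.05). In these fits 1 shSc library is left, the spread comes from the NPMKD libraries alone and the shSc library is assumed to vary like them. The replicate numbers are not known to pair the samples: correlations of same-numbered deviations were 0.42, 0.30 and 0.05, and NPMKD replicate 3 correlated best with shSc replicate 2. The cause of these shifts was not tested. Few reads limit what can be said of PRDX1, CCDC149 and SOD3 in shSc, at 24 reads or fewer pooled over shSc replicates 1 and 2. Whether depth, the amplicon or scarce RNA is behind the low counts was not tested.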
